A study of Mus musculus with 8 samples.

Results

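Secreted proteins through which the liver signals fasting, lipid load and cell stress to other tissues were examined in mouse liver RNA. The 10 genes were taken by symbol: Fgf21, Gdf15, Angptl4, Fst, Inhba, Inhbb, Inhbc, Inhbe, Lect2 and Enho. They are 10 of the 24940 genes in the count table, and all 10 were among the 12340 genes that passed the filter on low counts. The libraries came from whole liver of male C57BL/6 mice, 4 FXRKO and 4 BCL6LKOFXRKO, with no pairing stated in the labels. The animals' ages and feeding state at collection are not given per liver. Both groups are homozygous for the knockout of FXR, the nuclear bile acid receptor encoded by Nr1h4, in the whole body, and both carry Bcl6 fl/fl alleles. BCL6LKOFXRKO mice also carry Alb-Cre, which removes Bcl6, a transcriptional repressor, in cells that use the albumin promoter, the hepatocytes, while the RNA came from all cells of the liver. No liver with intact FXR was analysed here, and every difference below is between livers with and without hepatocyte Bcl6 on an FXR-null background.

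Hepatokines are proteins that hepatocytes release into blood and that act on fat, muscle, brain and the liver itself. FGF21 and GDF15 are endocrine stress hormones whose genes are known targets of the transcription factors of the integrated stress response, ATF4 and CHOP, and Fgf21 and Angptl4 are textbook targets of PPAR alpha, the fatty acid sensor of fasting. The inhibin beta genes encode the subunits that pair into activins, ligands of the TGF-beta superfamily, and follistatin (Fst) binds and neutralises activins. Adropin (Enho) and LECT2 are further liver-derived peptides linked to glucose and lipid metabolism.

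Libraries held between 7586241 and 11839503 counts, and 3 counts corresponded to between 0.272 and 0.375 CPM (the usual scaling of a count by library size, here with TMM factors), a floor that covers counting error only. Counts of the livers of a genotype differed by more than sampling noise in every pair (chi-square 10.8 to 50.01 per degree of freedom). The targeted gene, Bcl6, was at 56.3, 65.2, 21.2 and 55.6 CPM in FXRKO livers 1 to 4 and at 11.9, 4.61, 5.55 and 7.72 CPM in BCL6LKOFXRKO livers 1 to 4, so it was lower in each of the latter. Nr1h4 transcripts were still counted, at 59.96 ± 2.46 CPM (SD, n = 4) in FXRKO and 43.5 ± 3.69 CPM (SD, n = 4) in BCL6LKOFXRKO livers, lower in each of the latter (log2 fold change -0.46, edgeR adjusted p = 0.00497). The 50 most counted genes took 31.2% to 32.6% of counts in FXRKO and 41.7% to 45.1% in BCL6LKOFXRKO livers, and scaling by total counts alone moved the median log2 fold change of all tested genes by -0.16. Of the members, each kept its direction and its call under that scaling. P-values measure the spread between these livers, and in whole-liver RNA fewer cells of a type and less RNA per cell cannot be told apart.

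Promoter sequences are shown for Fgf21 and Inhbe, the members whose promoters hold the composite element bound by ATF4 with C/EBP factors (CARE, letters TGATGNAA on either strand), and for Inhbc and Inhbb, the relatives of Inhbe that moved in opposite directions. Each is the 250 bases before the RefSeq start site on GRCm38.p6 (the assembly of mm10), 5′ to 3′ on the gene's own strand, which is the minus strand in all 4, and capitals mark the CARE match.
Fgf21, chr7:45615491-45615740: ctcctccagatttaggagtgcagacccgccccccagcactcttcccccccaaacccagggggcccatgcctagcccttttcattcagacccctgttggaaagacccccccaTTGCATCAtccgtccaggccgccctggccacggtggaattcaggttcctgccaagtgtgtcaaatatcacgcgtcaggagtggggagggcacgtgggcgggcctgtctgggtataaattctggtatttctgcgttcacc
Inhbe, chr10:127351849-127352098: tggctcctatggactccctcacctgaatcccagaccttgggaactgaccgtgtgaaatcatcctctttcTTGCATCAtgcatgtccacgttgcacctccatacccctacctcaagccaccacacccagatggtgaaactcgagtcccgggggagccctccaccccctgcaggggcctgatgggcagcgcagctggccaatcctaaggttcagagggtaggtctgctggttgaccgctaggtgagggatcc
Inhbc, chr10:127370549-127370798: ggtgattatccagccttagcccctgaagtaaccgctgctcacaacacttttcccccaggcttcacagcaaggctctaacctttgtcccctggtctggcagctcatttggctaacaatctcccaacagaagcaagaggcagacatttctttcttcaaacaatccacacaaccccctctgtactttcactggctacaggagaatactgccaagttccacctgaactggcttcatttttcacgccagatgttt
Inhbb, chr1:119422249-119422498: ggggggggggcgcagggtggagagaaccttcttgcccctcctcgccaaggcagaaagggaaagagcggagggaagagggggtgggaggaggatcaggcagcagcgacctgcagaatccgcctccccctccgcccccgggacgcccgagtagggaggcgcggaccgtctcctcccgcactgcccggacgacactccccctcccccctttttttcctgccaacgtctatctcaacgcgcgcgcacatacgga

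RefSeq promoter windows of 300 bases (250 before and 50 after the start site) were at hand for 7 of the 10 members, with 8 start sites. The CARE match began at position -139 from the start site in Fgf21 and at -181 in Inhbe, and both read TTGCATCA, the reverse complement of the searched letters. Among 32851 promoters, 3.97% held a CARE match. The DR1 consensus bound by PPAR alpha (in 0.0396% of promoters) and the core shared by BCL6 and STAT sites (TTCNNNGAA, in 8.3%) were not matched in any member window, which says only that these letters are not there. The upstream stretch of Inhbb had 68.0% GC and 21 CpG, that of Fgf21 59.6% and 9, that of Inhbe 58.8% and 6 and that of Inhbc 48.8% and 2, where the median promoter had 52.4% GC and 6 CpG. Inhbc and Inhbe differed in these values although their genes lie 4474 bases apart on the same strand.

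Fgf21, Inhbb and Enho were higher in BCL6LKOFXRKO livers and Inhbc was lower, by edgeR's quasi-likelihood test at a Benjamini-Hochberg adjusted p under 0.05. The other 6 members did not pass that threshold, and in Gdf15, Fst, Angptl4 and Inhbe the call turned on 1 liver each. Over all tested genes 16.2% were higher and 13.5% were lower by the same rule, 29.7% in all, and for the members this was 3 and 1 of 10. Under scaling by total counts alone the balance of all genes turned, with 1404 higher and 2949 lower in place of 1994 and 1665, while the members stayed at 3 and 1. The same 4 members were those whose genotypes did not overlap, where 31.3% of all genes separated in this way, 3 with every BCL6LKOFXRKO liver above every FXRKO liver and 1 with every one below (16.1% and 15.2% of all genes). For Fgf21 this was fixed by the filter on low counts, which it passed only through the BCL6LKOFXRKO livers. The median log2 fold change of the members was 0.42, beside 0.01 for all genes.

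**Figure D1:**
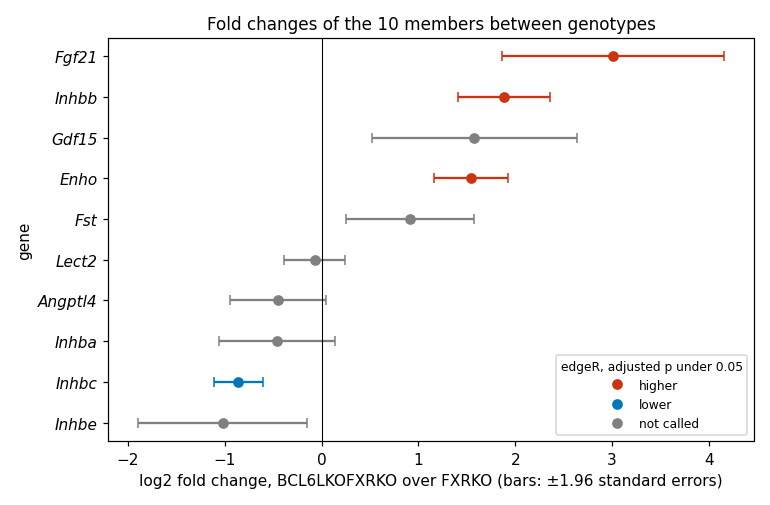
Log2 fold change of each member between genotypes (x axis, BCL6LKOFXRKO over FXRKO), one gene per line, from edgeR's fit to 4 and 4 livers. Bars are 95% intervals by a normal approximation from the standard errors, narrower than the quasi-likelihood test implies. Fgf21, Inhbb and Enho are called higher and Inhbc lower. Gdf15, Fst and Inhbe have bars that leave 0 but adjusted p-values of 0.0617, 0.0582 and 0.127. For Inhbe the edgeR p before adjustment was 0.0527, so its bar leaves 0 only by the approximation.

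**Figure D2:**
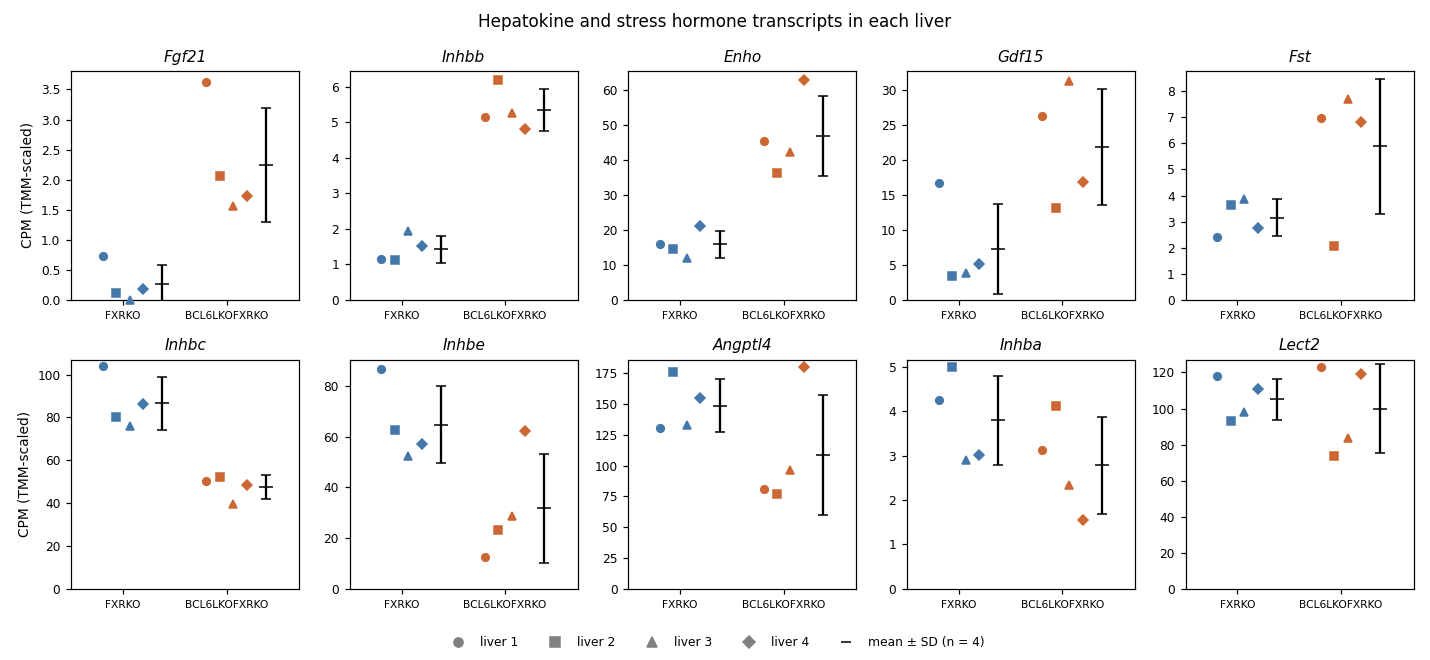
CPM of each member (y axis, linear from 0, a scale for each gene) in the 4 FXRKO and 4 BCL6LKOFXRKO livers, with the liver number given by the symbol; black bars are mean ± SD, and the part of a bar under 0 is not drawn. The genotypes do not overlap in Fgf21, Inhbb, Enho and Inhbc, while FXRKO liver 1 stands apart in Gdf15, BCL6LKOFXRKO liver 2 in Fst and BCL6LKOFXRKO liver 4 lies at FXRKO levels in Inhbe and Angptl4.

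Levels can be set beside each other between genes only per transcript length, as RPKM (CPM divided by the transcript length in kilobases). In FXRKO livers Lect2 was the most abundant member at 120.6 ± 13.2 RPKM (SD, n = 4), followed by Angptl4 at 78.5 ± 11.3, Inhbc at 43.9 ± 6.21, Inhbe at 29.4 ± 6.88, Enho at 12.8 ± 3.10 and Gdf15 at 5.29 ± 4.62 RPKM. Fst at 1.11 ± 0.246, Inhba at 0.596 ± 0.158, Inhbb at 0.336 ± 0.0897 and Fgf21 at 0.277 ± 0.341 RPKM closed the order. Of the neighbours in it, Inhbc and Inhbe, Enho and Gdf15, and Inhbb and Fgf21 had liver ranges that overlapped. In BCL6LKOFXRKO livers Enho at 37.5 ± 9.18 RPKM stood above Inhbc at 24.2 ± 2.83 RPKM, and Fgf21 at 2.38 ± 1.004 RPKM moved from the last to the seventh place. Fgf21 had ranked at the percentile 3.19 of all tested genes by RPKM in FXRKO livers and ranked at 30.8 in BCL6LKOFXRKO livers. Inhbc and Gdf15, Gdf15 and Inhbe, Fgf21 and Fst, and Fst and Inhbb traded places between livers there, and Lect2 and Angptl4, and Angptl4 and Enho, had ranges that overlapped. Lect2 stayed near the top, at percentiles 95.3 and 95.7.

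Fgf21 encodes the fasting and stress hormone that signals through FGF receptors with the co-receptor beta-klotho. Its transcript (NM_020013, chr7:45613890-45615490) had 7, 1, 0 and 2 counts in FXRKO livers 1 to 4, or 0.729, 0.125, 0 and 0.189 CPM, where 0 counts in liver 3 allows up to 0.322 CPM. In BCL6LKOFXRKO livers 1 to 4 it had 36, 17, 16 and 19 counts, or 3.63, 2.06, 1.56 and 1.73 CPM. Every BCL6LKOFXRKO liver was thus above every FXRKO liver, and liver 1 was the highest of each genotype. No FXRKO liver had enough counts for the filter on low counts, so Fgf21 was tested only through the BCL6LKOFXRKO livers. A gene that passes in this way cannot overlap, so the separation and the exact permutation p below are no separate support. With no filter edgeR gave a log2 fold change of 2.99 with an adjusted p of 0.00054. The fold was 8.07 (95% interval 3.65 to 17.8, log2 fold change 3.01 with a standard error of 0.58, edgeR adjusted p = 0.00192), and the exact permutation test gave 0.029, the smallest p that 70 orderings allow. Without FXRKO liver 1 the log2 fold change was 4.22, so the size rests on few counts even though Fgf21 was called in all 14 alternatives that gave a value.

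Transcripts of beta-klotho, the co-receptor that FGF21 needs, and of FGF receptors were counted in the same livers. Klb, which encodes beta-klotho, was at 25.3 ± 4.76 CPM (SD, n = 4) in FXRKO and 28.8 ± 4.67 CPM in BCL6LKOFXRKO livers (edgeR adjusted p = 0.408), and Fgfr1, the main FGF21 receptor of fat and brain, was at 12.7 ± 3.93 and 16.0 ± 8.16 CPM (adjusted p = 0.497). Fgfr4, the principal FGF receptor of hepatocytes, fell by 0.53 on the log2 scale (standard error 0.16, adjusted p = 0.0228), from 47.8 ± 5.22 to 33.2 ± 7.99 CPM, with BCL6LKOFXRKO liver 2 at 44.4 CPM inside the FXRKO range. The authors describe FGFR4 with beta-klotho as the hepatocyte receptor of FGF15, a hormone of the ileum. By qPCR they did not find Fgfr4 reduced in males of the same 2 genotypes. Fap, the protease that inactivates FGF21, had at most 3 counts in any liver and was not tested. Among 12 tested genes of FGF receptors and response, 3 rose and 2 fell, beside 16.2% and 13.5% of all genes, with a median log2 fold change of 0.22. Egr1, an immediate early gene induced by growth factors, rose from 13.1 ± 7.06 to 66.3 ± 16.9 CPM (log2 fold change 2.34, standard error 0.36, adjusted p = 0.00131). Fgfr2 rose by 0.87 and Spry1, a feedback inhibitor of receptor tyrosine kinases, by 1.06 on the log2 scale, while its relative Spry4 had a log2 fold change of -1.02. The 2 falls were both lost without FXRKO liver 4, and 1 was left without FXRKO liver 1, BCL6LKOFXRKO liver 1 or BCL6LKOFXRKO liver 3.

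Gdf15 encodes the stress hormone that lowers appetite through GFRAL, a receptor of the hindbrain. Its transcript (NM_001330687, chr8:70629393-70632456) was at 16.8, 3.37, 3.87 and 5.11 CPM in FXRKO livers 1 to 4 and at 26.2, 13.1, 31.2 and 16.9 CPM in BCL6LKOFXRKO livers 1 to 4. FXRKO liver 1 lay among the BCL6LKOFXRKO livers, while the other 3 FXRKO livers were below all of them. The fold was 2.98 (95% interval 1.43 to 6.21) and missed the threshold (edgeR adjusted p = 0.0617; exact permutation p = 0.057). Without FXRKO liver 1 the log2 fold change was 2.39 in place of 1.58, with an adjusted p of 0.000209. DESeq2 gave 1.58 with an adjusted p of 0.0321 and limma voom with quality weights 2.01 with 0.0029. No read was counted for Gfral in any of the 8 livers, which allows up to 0.375 CPM in the shallowest library.

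The integrated stress response genes to which Fgf21 and Gdf15 belong were counted next. Of 19 tested targets of ATF4 and CHOP, 6 rose, 2 fell and 11 were not called, where 16.2% of all genes rose and 13.5% fell. Their median log2 fold change was 0.27. The rises were 4 without FXRKO liver 2, 3 or 4 or BCL6LKOFXRKO liver 4. Atf4 itself was at 104.0 ± 12.3 CPM (SD, n = 4) in FXRKO and 114.4 ± 14.3 CPM in BCL6LKOFXRKO livers (edgeR adjusted p = 0.431). This is its transcript level, and ATF4 protein was not measured here. Ddit3, which encodes CHOP, rose by 0.83 on the log2 scale (standard error 0.29, adjusted p = 0.0451), with its BCL6LKOFXRKO values between 8.08 and 20.1 CPM and FXRKO values between 4.94 and 8.43 CPM. The strongest calls were Vldlr, a lipoprotein receptor, at 2.06 ± 0.530 and 11.7 ± 3.42 CPM (log2 fold change 2.48), Aldh18a1 of proline synthesis at 2.25 ± 0.851 and 9.29 ± 1.33 CPM (2.05) and the stress-induced regulator Nupr1 at 1.61 ± 1.09 and 6.97 ± 1.05 CPM (2.11). Cth of cysteine synthesis fell by 0.94 and Cebpb, a partner of ATF4, by 0.62 on the log2 scale. Asns, Trib3 and Chac1, classical ATF4 targets added here after their values were seen, had log2 fold changes of -0.37, -0.24 and -0.66 with adjusted p-values of 0.360, 0.494 and 0.212.

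The inhibin beta genes diverged. Inhbb, the subunit of activin B, had 11, 9, 18 and 16 counts in FXRKO livers 1 to 4 and 51, 51, 54 and 53 counts in BCL6LKOFXRKO livers 1 to 4 (NM_008381, chr1:119415463-119422248). In CPM these were 1.15, 1.13, 1.94 and 1.51 against 5.14, 6.19, 5.26 and 4.81, so the genotypes were far from overlapping and the BCL6LKOFXRKO livers lay close together (coefficient of variation 11.04%). The fold was 3.69 (95% interval 2.66 to 5.11, standard error of the log2 fold change 0.24, edgeR adjusted p = 8.32e-05; exact permutation p = 0.029). Inhba, the subunit of activin A, was at 4.27, 4.999, 2.90 and 3.03 CPM in FXRKO and 3.12, 4.13, 2.34 and 1.54 CPM in BCL6LKOFXRKO livers (NM_008380, chr13:16011851-16031609). These ranges overlapped, with a fold of 0.727 (95% interval 0.480 to 1.10, adjusted p = 0.280).

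Inhbc and Inhbe encode the beta subunits made mainly by hepatocytes, and activin E from Inhbe acts on fat cells to restrain lipolysis. Inhbc (NM_010565, chr10:127356322-127370548) was at 103.8, 80.1, 76.0 and 86.2 CPM in FXRKO livers 1 to 4 and at 50.3, 52.3, 39.6 and 48.5 CPM in BCL6LKOFXRKO livers 1 to 4. All BCL6LKOFXRKO livers were lower than all FXRKO livers, and Inhbc fell by 0.86 on the log2 scale (standard error 0.13, edgeR adjusted p = 0.000314; exact permutation p = 0.029), a fold of 0.551 (95% interval 0.462 to 0.656). Its neighbour Inhbe (NM_008382, chr10:127349402-127351848) was at 86.7, 62.7, 52.5 and 57.3 CPM in FXRKO and at 12.5, 23.2, 28.9 and 62.5 CPM in BCL6LKOFXRKO livers. BCL6LKOFXRKO livers 1 to 3 lay below every FXRKO liver and liver 4 lay inside their range, a ratio of 5.002 between the highest and the lowest BCL6LKOFXRKO liver. The fold was 0.493 (95% interval 0.268 to 0.904) with an edgeR p of 0.0527 before and 0.127 after adjustment. The exact permutation p was 0.086. Without BCL6LKOFXRKO liver 4 the log2 fold change was -1.59 with an adjusted p of 0.00896, and limma voom, which gives livers unequal weights, put it at -1.63 with 0.00128.

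Summed over the 4 beta genes, transcripts fell from 74.2 ± 12.9 to 40.3 ± 9.70 RPKM (SD, n = 4; exact permutation p = 0.029). Inhbc held 56.7% to 62.0% of this sum in FXRKO and 45.3% to 77.6% in BCL6LKOFXRKO livers, and Inhbe 36.8% to 42.3% and 17.2% to 52.2%. Inhbb made up 0.290% to 0.720% in FXRKO and 2.09% to 3.72% in BCL6LKOFXRKO livers, so that it remained a minor transcript after its rise. The ratio of Inhbc to Inhbe by RPKM was between 1.34 and 1.68 in FXRKO livers and was 4.50, 2.53, 1.53 and 0.869 in BCL6LKOFXRKO livers 1 to 4. The log2 ratio of Inhbe to Inhbc counts had a mean of -0.43 ± 0.154 in FXRKO and -0.82 ± 1.01 in BCL6LKOFXRKO livers (exact permutation p = 0.54), so the genotypes could not be told apart in its mean.

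**Figure D3:**
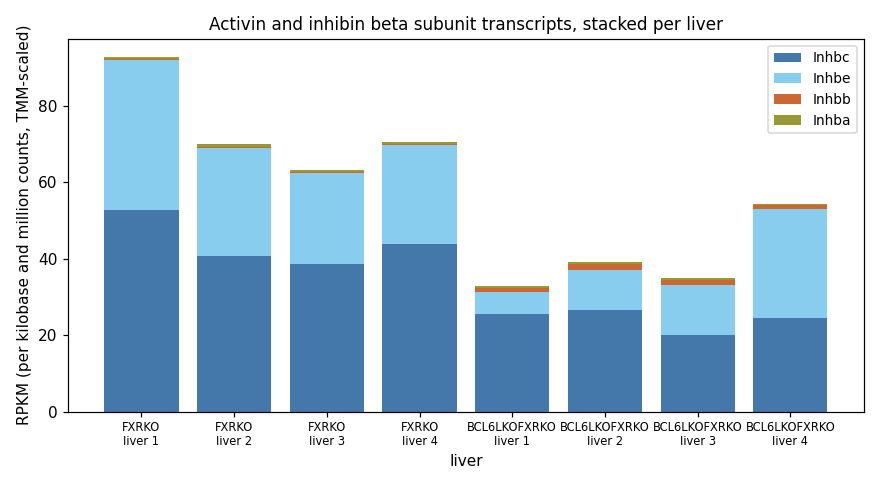
RPKM of the 4 inhibin beta genes stacked for each liver (y axis from 0; one bar per liver). The bars of the BCL6LKOFXRKO livers are shorter than those of the FXRKO livers, the Inhbc segment is shorter in all 4 and the Inhbe segment varies from liver to liver, with Inhbb a thin band that is wider in BCL6LKOFXRKO livers.

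Fst encodes follistatin, the secreted antagonist of activins. Its transcript (NM_001301375, chr13:114452262-114458951) was at 2.39, 3.62, 3.87 and 2.74 CPM in FXRKO livers 1 to 4 and at 6.95, 2.06, 7.70 and 6.81 CPM in BCL6LKOFXRKO livers 1 to 4. BCL6LKOFXRKO liver 2 was the lowest of all 8 and the other 3 were above every FXRKO liver. The fold was 1.89 (95% interval 1.19 to 2.99) with an edgeR adjusted p of 0.0582 and an exact permutation p of 0.14. Without BCL6LKOFXRKO liver 2 the log2 fold change was 1.17 in place of 0.92 with an adjusted p of 0.00217, and DESeq2 gave 0.91 with 0.0388.

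Its relative Fstl3, an activin-binding protein of the same family, was higher in every BCL6LKOFXRKO liver. It had 1, 2, 3 and 4 counts in FXRKO and 39, 28, 39 and 54 counts in BCL6LKOFXRKO livers 1 to 4, or 0.264 ± 0.119 and 4.01 ± 0.639 CPM (SD, n = 4). Its log2 fold change was 3.85 (standard error 0.35, edgeR adjusted p = 4.39e-06). No FXRKO liver had enough counts for the filter on low counts, so Fstl3 was tested only through the BCL6LKOFXRKO livers. The lack of overlap follows from that and is no separate support. Fstl1, a more distant member of the family, rose by 0.84 on the log2 scale, from 7.01 ± 1.37 to 12.6 ± 2.75 CPM (adjusted p = 0.00658). The type II receptors that bind activins went the other way. Acvr2b fell by 1.38 on the log2 scale, from 13.9 ± 4.33 to 5.37 ± 2.09 CPM (adjusted p = 0.00237), and Acvr2a fell by 0.53, from 12.0 ± 1.28 to 8.32 ± 1.37 CPM (adjusted p = 0.0285). The type I receptor Acvr1 fell by 0.50 on the log2 scale (adjusted p = 0.0400). These 5 were the calls among 15 tested activin receptors, SMADs and inhibitors, whose median log2 fold change was -0.06, and 2 of 15 rose and 3 fell beside 16.2% and 13.5% of all genes. The falls were reduced from 3 to 1 without FXRKO liver 1, 2 or 3 or without BCL6LKOFXRKO liver 1 or 4. Inha, whose product pairs with beta subunits to form inhibins, had at most 7 counts and Acvr1c, a type I receptor of activins, at most 3, and neither was tested.

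**Figure D4:**
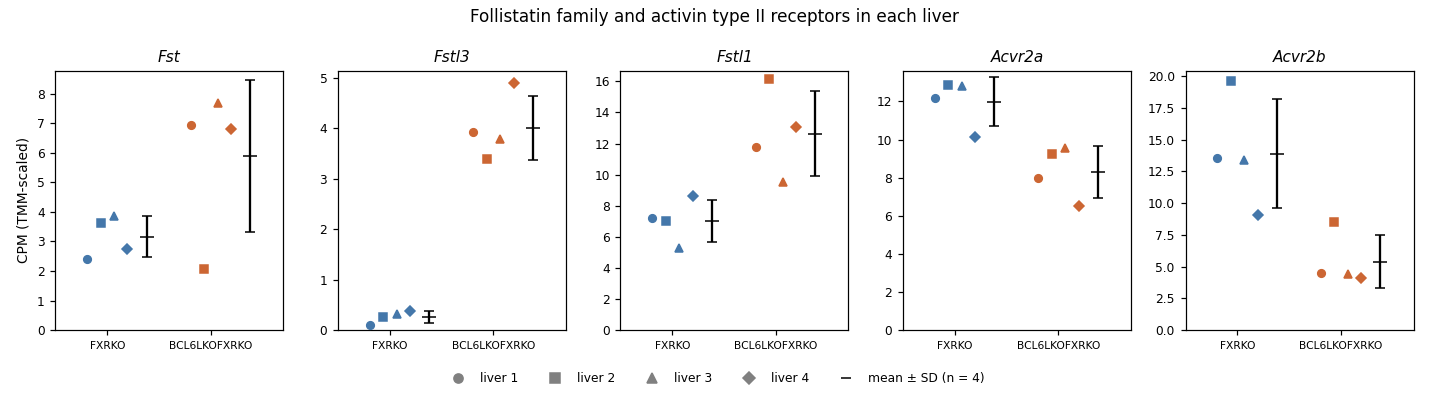
CPM (y axis, linear from 0) of Fst, Fstl3, Fstl1 and the type II receptors Acvr2a and Acvr2b in each liver, with mean ± SD in black. Fstl3 and Fstl1 are higher and Acvr2a and Acvr2b lower in every BCL6LKOFXRKO liver than in every FXRKO liver, whereas Fst overlaps through BCL6LKOFXRKO liver 2. For Fstl3 the separation follows from the filter on low counts, passed only through the BCL6LKOFXRKO livers.

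Angptl4 encodes the fasting-induced inhibitor of lipoprotein lipase. Its transcript (NM_020581, chr17:33774900-33781575) was at 130.6, 176.3, 132.9 and 154.7 CPM in FXRKO livers 1 to 4 and at 81.4, 76.7, 96.2 and 180.1 CPM in BCL6LKOFXRKO livers 1 to 4. BCL6LKOFXRKO liver 4 had the highest value of all 8, and the other 3 were below every FXRKO liver. The fold was 0.732 (95% interval 0.519 to 1.03, edgeR adjusted p = 0.208; exact permutation p = 0.14). Without BCL6LKOFXRKO liver 4 the log2 fold change was -0.81 with an adjusted p of 0.000714, and limma voom gave -0.75 with 0.00409.

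The enzyme that ANGPTL4 inhibits was higher. Lpl, which is low in healthy adult liver, was at 14.6 ± 3.99 CPM (SD, n = 4) in FXRKO and 30.8 ± 6.53 CPM in BCL6LKOFXRKO livers (log2 fold change 1.08, standard error 0.19, edgeR adjusted p = 0.00118), and Gpihbp1, its endothelial anchor, was at 10.98 ± 2.54 and 17.4 ± 4.38 CPM (adjusted p = 0.0307). Apoc2, the activator of the lipase, rose by 2.42 on the log2 scale and Apoc3, its inhibitor, by 0.58. Apoa5, which promotes lipolysis, fell by 0.84. Lipc (hepatic lipase) fell by 2.77 (standard error 0.26, adjusted p = 3.06e-05), from 141.6 ± 6.68 to 20.9 ± 9.05 CPM. Lipg (endothelial lipase) fell by 2.71 with a wider error (standard error 0.69, adjusted p = 0.0224), from 25.7 ± 22.0 to 3.90 ± 1.03 CPM. Angptl8, a relative of Angptl4 that also acts on the lipase, was at 39.6 ± 20.4 and 36.2 ± 7.78 CPM (adjusted p = 0.810). Of these 10 genes around the lipase 4 rose and 3 fell (all genes 16.2% and 13.5%), with a median log2 fold change of -0.05. The falls were 2 when any BCL6LKOFXRKO liver was left out. The rises were 3 without FXRKO liver 1, 2 or 4 or BCL6LKOFXRKO liver 3 or 4.

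Fgf21 and Angptl4 are known PPAR alpha targets, and other such targets were counted beside them. Of 25 tested PPAR alpha and fasting genes 9 fell and 4 rose, where 13.5% of all genes fell and 16.2% rose, with a median log2 fold change of -0.40. Ppara itself fell by 0.99 on the log2 scale (standard error 0.17, edgeR adjusted p = 0.00104), from 258.4 ± 38.1 to 130.3 ± 34.0 CPM (SD, n = 4). Acadm, an enzyme of mitochondrial fatty acid oxidation, fell by 0.55 (adjusted p = 0.0012). The genes that rose were the thioesterases Acot2 (log2 fold change 1.89) and Acot3 (3.995), the fatty acid transporter Cd36 (0.99) and the kinase Pdk4 (2.25), which restrains glucose oxidation and is named after its value was seen.

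BCL6LKOFXRKO liver 4, the liver that stood out in Angptl4 and Inhbe, was the highest of its genotype in 20 of these 25 genes, where it was the highest in 32.7% of all tested genes. In Fgf21, also a PPAR alpha target, it was at 1.73 CPM, below BCL6LKOFXRKO livers 1 and 2 at 3.63 and 2.06 CPM. Plin2, which coats lipid droplets, was at 1154 CPM in that liver and between 444.1 and 526.2 CPM in the other 3. Creb3l3, a hepatocyte transcription factor of fasting, was at 394.6 CPM there and between 182.7 and 217.8 CPM in the others, and Acot1 at 40.3 CPM and between 12.2 and 16.6 CPM. These 3 genes were picked after their values were seen, and none of them passed the test between genotypes. The part of this liver's other features in the Angptl4 and Inhbe values was not tested. FXRKO liver 1, which stood out in Gdf15, was the highest of its genotype in 5 of the 10 members, and in 26.5% of all tested genes.

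**Figure D5:**
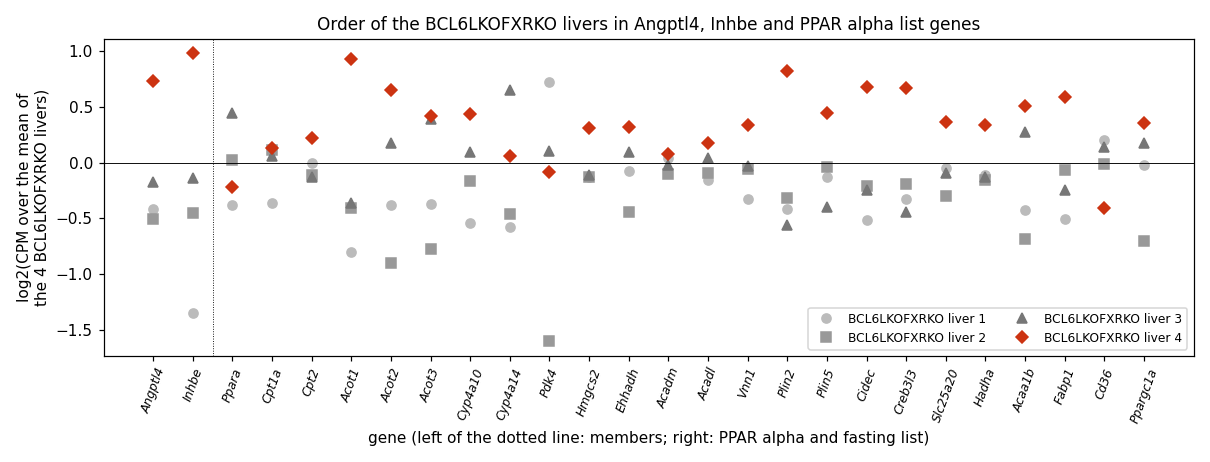
Log2 of CPM over the mean of the 4 BCL6LKOFXRKO livers (y axis) for Angptl4 and Inhbe, left of the dotted line, and listed PPAR alpha and fasting genes, right of it. Red diamonds are BCL6LKOFXRKO liver 4, which lies highest in both members and in 20 of the listed genes. Angptl4 and Inhbe are shown because liver 4 stood out in them. Fgf21, in which liver 4 was not the highest, is not shown.

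Enho encodes adropin, a small secreted peptide. Its transcript (NM_027147, chr4:41638144-41640302) was at 16.0, 14.6, 12.0 and 21.2 CPM in FXRKO livers 1 to 4 and at 45.2, 36.3, 42.3 and 62.8 CPM in BCL6LKOFXRKO livers 1 to 4. The genotypes did not overlap, and the fold was 2.92 (95% interval 2.23 to 3.81, standard error of the log2 fold change 0.20, edgeR adjusted p = 9.39e-05; exact permutation p = 0.029). It was called in all 15 alternatives that gave a value, with log2 fold changes between 1.37 and 1.71. Dnaic1, on the opposite strand and ending at 41638158 just inside Enho, was at 0.591 and 2.78 CPM. It was called higher as well (log2 fold change 2.135, standard error 0.53, edgeR adjusted p = 0.00939). Reads of the shared bases cannot be assigned to a strand here.

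Lect2, a hepatocyte protein first described as a chemotactic factor, was at 118.0, 92.9, 98.3 and 111.1 CPM in FXRKO livers 1 to 4 and at 123.0, 73.9, 83.6 and 119.0 CPM in BCL6LKOFXRKO livers 1 to 4 (NM_010702, chr13:56542460-56548538). The ranges overlapped, with a fold of 0.951 (95% interval 0.762 to 1.19, edgeR adjusted p = 0.770), and the sign turned when BCL6LKOFXRKO liver 2 or 3 was left out, to log2 fold changes of 0.04 and 0.01. Met, a receptor to which LECT2 binds and the receptor of hepatocyte growth factor, fell by 1.12 on the log2 scale (standard error 0.15, adjusted p = 0.000148), from 63.6 ± 4.67 to 29.4 ± 6.50 CPM (SD, n = 4). Tie1, another LECT2 receptor, on endothelial cells, was at 13.3 ± 2.08 and 17.2 ± 5.34 CPM (adjusted p = 0.202). Among the 6 listed receptors of GDF15, LECT2 and adropin, 3 could be tested. Met was the only call, where 13.5% of all genes fell and 16.2% rose, and 3 genes are too few to set against these shares.

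Beyond the 10 members, 8 of 21 other tested genes listed as hepatokines rose and 1 fell, where 16.2% of all genes rose and 13.5% fell, with a median log2 fold change of 0.31. Whole-liver RNA does not show which cell type made these transcripts. Gpnmb, a membrane glycoprotein that is shed into blood, rose from 0.917 ± 0.934 to 38.4 ± 20.9 CPM (SD, n = 4; log2 fold change 5.35, standard error 0.66, edgeR adjusted p = 0.000662). Igfbp2, a binding protein of insulin-like growth factors, rose by 0.98 and Selenop, the selenium carrier of plasma, by 0.48 on the log2 scale, while Tsku fell by 1.58. The rises were 4 without FXRKO liver 2 or FXRKO liver 3, the fall was lost without BCL6LKOFXRKO liver 3 or 4, and scaling by total counts alone gave 3 rises and 3 falls. Of 15 genes of feeding and insulin response, 4 fell and 2 rose (all genes 13.5% and 16.2%), with a median of -0.27. Scd1, the desaturase of fat synthesis, fell by 1.49, the gluconeogenic enzyme Pck1 by 1.61 and Mlxipl, which encodes the sugar sensor ChREBP, by 1.08. Pnpla3 rose by 2.21 and Irs2, an adaptor of the insulin receptor, by 1.35. A single rise was called without FXRKO liver 1, 3 or 4 or BCL6LKOFXRKO liver 1 or 3, and 3 without FXRKO liver 2 or BCL6LKOFXRKO liver 2.

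Hepatocyte markers were abundant in every library, as the tissue label says, with Alb taking 4.04% to 5.16% of counts in FXRKO and 11.9% to 13.2% in BCL6LKOFXRKO livers. Of the 7 hepatocyte markers Alb rose, Ttr and Apob fell and 4 were not called (these 3 are named after their values were seen). Markers of stellate cells and fibroblasts rose in 7 of 10 (16.2% of all genes) and summed to between 239.8 and 334.1 CPM in FXRKO and 492.8 and 604.1 CPM in BCL6LKOFXRKO livers. For macrophages 3 of 10 rose (344.6 to 475.5 and 430.1 to 761.9 CPM), for endothelial cells 2 of 8 (154.5 to 216.2 and 219.0 to 273.6 CPM) and for cholangiocytes 3 of 5 tested (42.0 to 67.0 and 92.3 to 194.8 CPM). The cholangiocyte sum was carried by Spp1 (43.4 ± 7.51 and 87.2 ± 25.1 CPM) and Prom1 (0.969 ± 0.519 and 30.6 ± 20.2 CPM). Sox9 was not called, with a log2 fold change of -0.81 (edgeR adjusted p = 0.0773). These 3 cholangiocyte markers are named after their values were seen. The 6 neutrophil markers summed to between 2.26 and 8.33 CPM in FXRKO and 8.66 and 18.0 CPM in BCL6LKOFXRKO livers, with 1 of 2 tested higher. The 6 T and B cell markers summed to between 1.5 and 3.65 and between 4.63 and 6.27 CPM, with none high enough to test. No marker was at 0 in all livers, and no tested marker of a cell type other than hepatocytes was called lower. The part of these cell types in the values of Fgf21, Gdf15, Fst, Fstl3, Inhbb and Gpnmb was not tested.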

How the data were processed

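Liver RNA-seq counts of 4 FXRKO and 4 BCL6LKOFXRKO males were used, grouped by the genotype in the sample labels. The authors prepared stranded polyA libraries, sequenced single reads of 100 bases and deposited raw counts per gene: per their methods and the submitters' processing notes, STAR 2.5.2 aligned to mm10, and HOMER 4.10 counted exon reads with 1 transcript per gene and a transcript length. The counting command names no strand, so overlapping genes on opposite strands are uncertain. No deposited comparison column was used.

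The test was edgeR 4.0.16 in R 4.3.3 (filterByExpr, TMM, robust quasi-likelihood fit, Benjamini-Hochberg adjustment over the 12340 tested genes), with calls at adjusted p-values under 0.05. Standard errors were the log2 fold change over the root of F. CPM and RPKM used TMM-scaled library sizes. Exact permutation tests of mean log2 CPM were two-sided over 70 orderings. A replicate agreeing within noise was looked for by chi-square. Alternatives were DESeq2 1.42.0, limma 3.58.1 voom (quality weights), scaling by total counts alone, by RLE size factors or without the 50 most counted genes, a filter of 10 counts in every liver or none, calls only past an absolute log2 fold change of 0.5, and leaving out each liver in turn. On counts simulated for this comparison with 12340 genes and 200 changed, edgeR recovered 90% with 8.63% false calls, DESeq2 91% with 13.3% and limma voom 87.5% with 7.41%. Motifs were searched by their letters on both strands of RefSeq promoter windows.

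The members, gene lists and motifs were chosen with earlier results of these data known. Named were all members, Bcl6 and Nr1h4, the direct receptors, inhibitors and partners of members, Atf4, Ddit3 and Ppara, and up to 3 called genes per list and direction, by adjusted p. Genes outside this rule are said to be named or picked after their values were seen. Of the genes this rule gives, 2 are not reported here.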

Additional observations from a re-analysis of the deposited data

Results flagged for a closer look

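A liver was looked for that lay far from the other 3 of its genotype, by Dixon's ratio of its gap to the range of the group, against its 95% critical value. Of 116 groups of 4 livers 7 passed, where chance gives about 1 in 20, or 5.8. Among the members, Gdf15 in FXRKO liver 1 (16.8 CPM against 3.37 to 5.11, ratio 0.870) and Fst in BCL6LKOFXRKO liver 2 (2.06 CPM against 6.81 to 7.70, ratio 0.843) stood apart, and each is the liver on which the call of that gene turns. BCL6LKOFXRKO liver 2 was also apart in Acvr2b (8.50 CPM against 4.09 to 4.53, ratio 0.899) and Mlxipl (218.6 CPM against 142.8 to 152.3, ratio 0.875). The other cases were Scd1 in BCL6LKOFXRKO liver 3 (2096 CPM against 2916 to 2989, ratio 0.918), Apoc3 in FXRKO liver 4 (1234 CPM against 1586 to 1656, ratio 0.834) and Inha in BCL6LKOFXRKO liver 4 (0.636 CPM against 0.121 to 0.201, ratio 0.844), the last on 7 counts.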

How the results depend on the processing

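No paired analysis was possible because the labels give no replicate numbers or pairs shared by the genotypes. Of 148 values of the members under the alternatives 137 had the reported sign and call, 9 were called only under the alternative, and 2 turned sign: Lect2 without BCL6LKOFXRKO liver 2 (log2 fold change 0.04) and without liver 3 (0.01), in a range of -0.188 to 0.0361 with a liver left out. Fgf21, Inhbb, Enho and Inhbc were called under every alternative that gave a value, and Inhba and Lect2 under none. With a minimum of 10 counts per liver Fgf21 and Inhbb were not tested, since they had fewer. Members called higher numbered 5 with DESeq2, 1 with that minimum and 3 to 4 with a liver left out. Those called lower numbered 3 with limma voom and 1 to 3 with a liver left out. Among 320 counts over the lists and all genes, 288 stayed within 1.5 times. The exceptions were as follows, and beyond fewer livers or genes tested their cause was not tested. Total counts alone gave 5 activin genes lower, 1 feeding gene higher, 3 other hepatokines higher and 3 lower, and 2949 of all genes lower against 1665, with 32.3% of calls higher in place of 54.5%. The minimum of 10 counts left 1 activin gene higher. No filter gave 1 feeding gene higher and 2 other hepatokines lower, and an absolute log2 fold change above 0.5 left 4 other hepatokines higher. With a liver left out, FGF21 genes lower numbered 0 to 2, activin genes lower 1 to 3, feeding genes higher 1 to 3, and other hepatokines 4 to 8 higher and 0 to 2 lower. Though within 1.5 times, integrated stress response genes higher ranged from 4 to 6 and PPAR alpha genes lower from 6 to 11. Depth limits Fgf21, Inhbb and Fstl3, which had few counts in FXRKO livers.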
